A study of Mus musculus with 9 samples.

Results

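The 10 genes described here mark natural killer (NK) cells and cytotoxic T lymphocytes. They were chosen by symbol from the 34638 genes of the expression table: *Gzma*, *Gzmb*, *Prf1* and *Nkg7* of the cytotoxic granule, the NK receptors *Ncr1* and *Klrb1c*, the transcription factors *Eomes* and *Tbx21*, the cytokine *Ifng*, and *Cd8a*. RNA was sequenced from whole lungs of 9 wild-type (WT) C57BL/6 mice, 3 per group. Control mice received phosphate-buffered saline (PBS) into the trachea, and IL-33 mice received 0.5 µg of recombinant mouse IL-33 by the same route on days 0 to 3. IL-33+LM8 mice received the same IL-33 challenges after an intraperitoneal injection of LM8 at 10 mg/kg, a compound that the series title calls an inhibitor of MyD88. For the control and IL-33 groups the study's methods give female mice aged 6 to 8 weeks, a volume of 25 µL and lung collection on day 4, the day after the last challenge. Age, sex and collection day of the IL-33+LM8 mice were not given in the sources used here. No vehicle injection was described for the control and IL-33 groups, so the effects of LM8 and of the injection cannot be told apart.

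NK cells and cytotoxic T cells kill by releasing granules that carry perforin, which opens the target membrane, and granzymes, proteases that enter through it. NK cells are set going by the balance of activating and inhibitory surface receptors and by cytokines such as IL-12, IL-15 and IL-18, and they depend on the T-box factors T-bet (*Tbx21*) and eomesodermin (*Eomes*). The lung is rich in NK cells at rest. IL-33 is an epithelial alarmin whose receptor, like that of IL-18, signals through the adaptor MyD88, and it is best known for driving group 2 innate lymphoid cells (ILC2s), eosinophils and type 2 cytokines.

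The promoters of the genes are shown because 6 of the 10 shared a short sequence. RefSeq promoter windows (GRCm38.p6, 250 bases before to 50 after the start site) were found for 10 of the 10 genes. The core recognised by RUNX factors, spelled TGTGGT and searched on both strands, was present in the windows of *Gzma*, *Gzmb*, *Prf1*, *Nkg7*, *Ncr1* and *Klrb1c*. It was not found in those of *Eomes*, *Tbx21*, *Ifng* and *Cd8a*. Of 32851 promoter windows of the same length in the genome, 16.8% held it. The T-box core GGTGTG occurred in 1 of the 10 genes (*Nkg7*; 19.0% of all windows), and the STAT core TTCNNNGAA in 3 (*Gzmb*, *Nkg7* and *Ifng*; 8.3% of all windows). The RUNX and T-box cores can share letters where they lie side by side, but no match overlapped another in these windows. A match is a run of letters and not a measured binding site. The last 200 bases before the start site of the 6 genes are shown, with the RUNX core in capitals (TGTGGT, or ACCACA where it lies on the other strand). They lie at chr13:113100982-113101181 (minus strand) for *Gzma*, chr14:56262335-56262534 (minus strand) for *Gzmb* and chr10:61297636-61297835 (plus strand) for *Prf1*. Those of *Nkg7*, *Ncr1* and *Klrb1c* lie at chr7:43436938-43437137 (plus strand), chr7:4337515-4337714 (plus strand) and chr6:128788642-128788841 (minus strand). *Ncr1* has a second RefSeq window that starts 9 bases further on and holds the same 2 matches.
Gzma: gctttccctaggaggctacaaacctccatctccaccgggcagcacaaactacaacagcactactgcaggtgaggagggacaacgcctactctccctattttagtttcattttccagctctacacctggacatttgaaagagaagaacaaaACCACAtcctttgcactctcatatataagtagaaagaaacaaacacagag
Gzmb: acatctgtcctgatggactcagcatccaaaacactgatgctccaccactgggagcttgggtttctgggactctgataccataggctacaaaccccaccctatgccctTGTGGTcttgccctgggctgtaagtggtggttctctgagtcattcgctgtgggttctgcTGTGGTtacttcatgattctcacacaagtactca
Prf1: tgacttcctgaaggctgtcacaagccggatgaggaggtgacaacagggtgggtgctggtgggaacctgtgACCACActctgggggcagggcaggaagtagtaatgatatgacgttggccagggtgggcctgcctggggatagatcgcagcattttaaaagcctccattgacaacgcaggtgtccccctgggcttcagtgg
Nkg7: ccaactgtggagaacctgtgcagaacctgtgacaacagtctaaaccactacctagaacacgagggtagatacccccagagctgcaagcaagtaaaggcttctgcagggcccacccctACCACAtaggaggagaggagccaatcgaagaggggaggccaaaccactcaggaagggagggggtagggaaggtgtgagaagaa
Ncr1: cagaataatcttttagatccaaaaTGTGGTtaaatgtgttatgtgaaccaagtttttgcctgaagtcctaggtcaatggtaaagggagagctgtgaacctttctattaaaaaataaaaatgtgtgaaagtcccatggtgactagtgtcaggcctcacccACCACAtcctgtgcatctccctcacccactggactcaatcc
Klrb1c: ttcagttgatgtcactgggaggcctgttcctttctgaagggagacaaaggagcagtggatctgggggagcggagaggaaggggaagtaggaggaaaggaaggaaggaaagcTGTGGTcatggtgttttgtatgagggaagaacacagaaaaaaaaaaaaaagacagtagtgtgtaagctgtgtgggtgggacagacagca

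The core began 50 bases before the start site in *Gzma*, 93 and 34 bases before it in *Gzmb*, 130 in *Prf1*, 83 in *Nkg7*, 176 and 41 in *Ncr1*, and 89 in *Klrb1c*. Of these 6 genes, 5 were called lower after IL-33 by the edgeR test described below, and *Nkg7* was not called. Of all genes tested, 27.2% were called lower. Whether the core has a part in these falls was not tested.

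**Figure D1:**
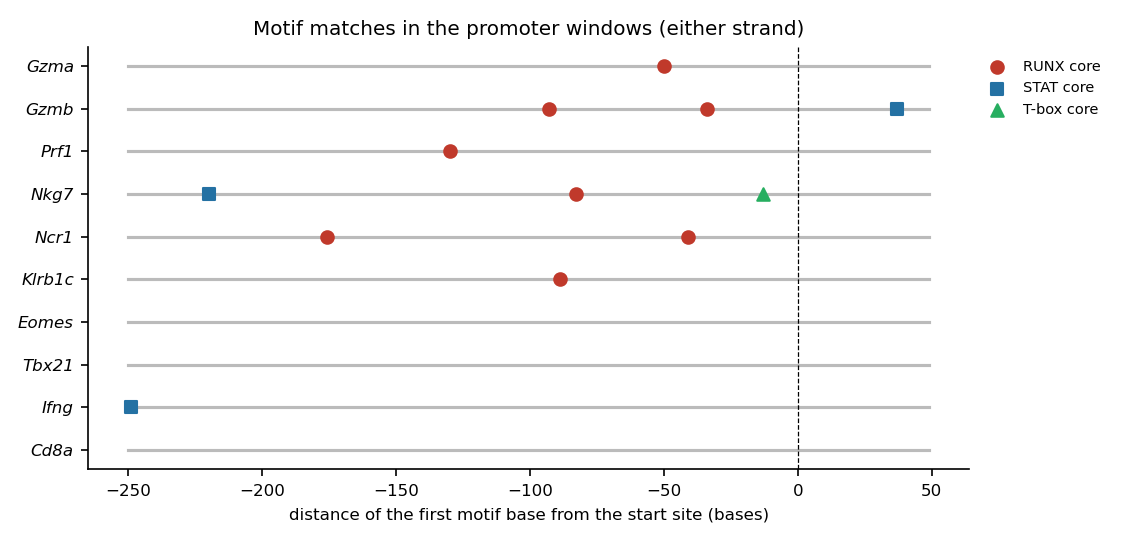
Position of each motif match in the promoter windows of the 10 genes, in bases from the start site (dashed line at 0); grey lines are the windows, and symbols mark the first base of a match on either strand. The 6 genes of the granule and the NK receptors carry the RUNX core, and *Eomes*, *Tbx21*, *Ifng* and *Cd8a* carry none.

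Libraries held 53877663 to 90607218 counted reads. Levels are given as FPKM, fragments per kilobase of transcript scaled to the size of the library, which can be compared between genes. The lung genes used as a check were high in every mouse (12 markers of epithelium, endothelium and mesenchyme summed to 15007 to 36443 FPKM). All 6 general leukocyte markers tested were higher after IL-33, and their summed level went from 129 to 142 FPKM in control mice to 474 to 504 in IL-33 mice and 304 to 325 in IL-33+LM8 mice. IL-33+LM8 replicate 2 was the lowest of its group in 10 of the 10 genes and replicate 1 the highest in 10 of 10, and control replicate 1 was the lowest of its group in 9 of 10. For the 10 genes, most calls that change without these mice are given without them too. For *Gzma* and *Eomes* against control the range over all runs is given. For the gene lists further on the larger shifts without these mice are given.

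After IL-33, 5 of the 10 genes fell to about the same degree: *Gzma*, *Gzmb*, *Prf1*, *Ncr1* and *Klrb1c*. No gene rose. The quasi-likelihood test of edgeR, adjusted after Benjamini and Hochberg over 16831 genes and read at an adjusted p under 0.05, called 0 of the 9 genes tested higher and 5 lower, where 27.4% of all genes were called higher and 27.2% lower. The 5 are also the genes whose FPKM ranges in the control and IL-33 mice did not overlap, all 5 with IL-33 below, and 0 lay above, where 31.7% of all genes had non-overlapping ranges in each direction. The median log2 fold change of the 9 genes was -0.97 and that of all genes tested -0.01. In whole lung, fewer cells of a type and less RNA per cell cannot be told apart. Of the 12 structural lung markers, 7 were lower and 3 higher over the same mice, and their summed level went from 33670 to 36443 FPKM in control mice to 15007 to 16249 in IL-33 mice, with log2 fold changes of -1.15 for *Sftpc*, of alveolar type 2 cells, and -1.08 for *Cdh5*, of endothelium (both named after their values were seen). The falls of *Sftpc* and *Cdh5* are of the size of those of the 5 NK genes, but the median of the 12 markers was -0.63. The 3 higher markers include *Col1a1*, at 33.6 ± 8.98 FPKM in control and 149 ± 15.3 in IL-33 mice (SD, n = 3 each). *Scgb1a1* (21499.5 FPKM in control mice) and *Sftpc* (11029.6) made up most of the sum. *Col1a1* and *Scgb1a1* were also named after their values were seen. The part of leukocyte RNA in the falls of the markers or of the NK genes was not tested.

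With LM8, *Gzma* and *Gzmb* were higher than in IL-33 mice and *Eomes* lower. The same test called 2 of the 9 genes higher and 1 lower, where 12.6% of 16831 genes were called higher and 13.9% lower. For so few genes, both counts lay near these shares. FPKM ranges of the IL-33+LM8 and IL-33 mice did not overlap for 3 genes that were higher (*Gzma*, *Gzmb* and *Klrb1c*) and 1 that was lower (*Eomes*), against 21.2% and 22% of all genes. These calls rest on single mice: leaving out 1 of the 6 mice at a time left between 0 and 4 genes called higher and between 0 and 1 called lower. IL-33+LM8 mice against control mice gave 0 genes called higher and 0 lower by edgeR, 2 at an unadjusted p under 0.05, 2 lower by DESeq2 and 2 lower with all 9 mice in the edgeR fit. For that comparison 16.3% of all genes were called higher and 13.4% lower. Ranges did not overlap for 0 genes that were higher and 2 that were lower (*Gzma* and *Eomes*), against 23.4% and 23.9% of all genes. The 3 comparisons share mice in pairs, so they are set side by side and are not independent. The plot of levels shows each mouse.

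**Figure D2:**
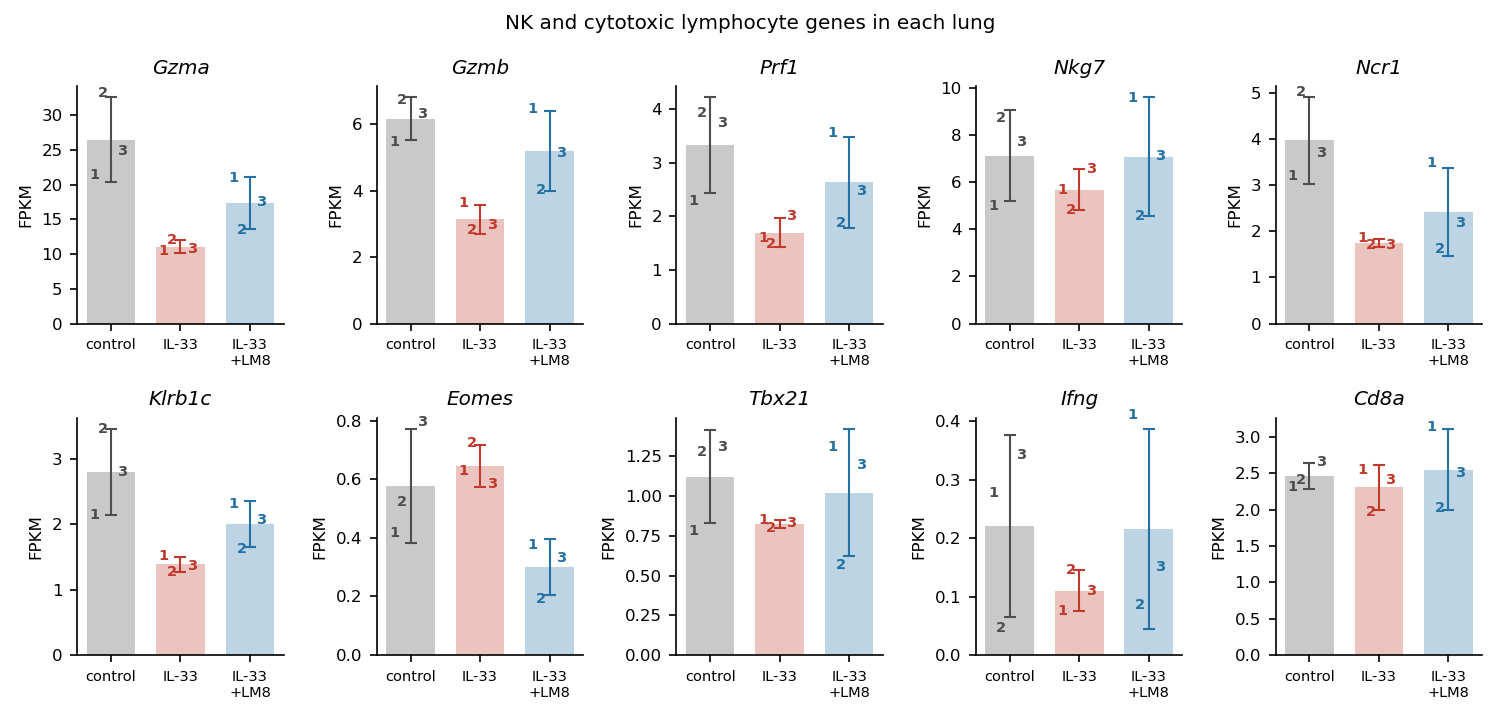
FPKM of the 10 genes in each of 9 lungs; digits are the replicate numbers of the mice, bars are group means and whiskers the SD (n = 3), and each panel has its own scale from 0. *Gzma*, *Gzmb*, *Prf1*, *Ncr1* and *Klrb1c* are lower in the 3 IL-33 mice than in any control mouse, while *Eomes* is lowest in the 3 IL-33+LM8 mice.

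*Gzma*, on chromosome 13, encodes granzyme A, a tryptase-like granule protease and the most abundant of the 10 transcripts (mean of 9 mice, 18.3 FPKM). Its FPKM was 21.3, 33.2 and 24.8 in the control mice, 10.4, 12.1 and 10.7 in the IL-33 mice, and 20.9, 13.4 and 17.5 in the IL-33+LM8 mice. Every IL-33 mouse lay below every other mouse, and every IL-33+LM8 mouse lay below every control. Group means were 26.4 ± 6.12, 11.1 ± 0.886 and 17.3 ± 3.75 (SD, n = 3 each). Compared with the control group, *Gzma* fell 2.39-fold in the IL-33 group (log2 fold change -1.26 ± 0.17 SE, edgeR adjusted p = 0.000598). Compared with the IL-33 group, it rose 1.56-fold with LM8 (0.64 ± 0.16, edgeR adjusted p = 0.0243), and it was -0.60 ± 0.20 from the control level (edgeR adjusted p = 0.0638). The fall after IL-33 was called in every alternative run, with an adjusted p of at most 0.00494. The difference of IL-33+LM8 from control had an adjusted p from 0.00874 to 0.186 over all runs, so it was called lower in some alternatives. The rise with LM8 was not called when any of IL-33 replicates 1 and 3 or IL-33+LM8 replicates 1 and 3 was left out, with adjusted p between 0.0567 and 0.0834.

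*Gzmb*, on chromosome 14, encodes granzyme B, which cleaves caspases and other targets after aspartate. It measured 5.47, 6.72 and 6.31 FPKM in control, 3.63, 2.82 and 2.95 in IL-33, and 6.44, 4.01 and 5.12 in IL-33+LM8 mice. The IL-33 mice again lay below all others, whereas the IL-33+LM8 and control ranges overlapped. The means were 6.16 ± 0.639, 3.14 ± 0.436 and 5.19 ± 1.22 (SD, n = 3 each). The fall after IL-33 was -0.97 ± 0.15 on the log2 scale (edgeR adjusted p = 0.00141). The rise with LM8 was 0.72 ± 0.20 (edgeR adjusted p = 0.0359), which was lost on leaving out any IL-33 mouse or IL-33+LM8 replicate 1 or 3. Against control, IL-33+LM8 gave -0.23 ± 0.19 (edgeR adjusted p = 0.386).

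*Prf1*, on chromosome 10, encodes perforin. Its FPKM was 2.29, 3.93 and 3.74 in control, 1.60, 1.49 and 2.00 in IL-33, and 3.56, 1.88 and 2.47 in IL-33+LM8 mice. All IL-33 mice lay below all control mice, and IL-33+LM8 replicate 2 lay inside the IL-33 range. The means were 3.32 ± 0.897, 1.70 ± 0.273 and 2.63 ± 0.851 (SD, n = 3 each). *Prf1* fell by 0.97 ± 0.23 (SE) on the log2 scale after IL-33 (edgeR adjusted p = 0.0105). The difference with LM8 was 0.63 ± 0.25 and did not pass (edgeR adjusted p = 0.109), and without IL-33+LM8 replicate 2 it did (0.82 ± 0.23, adjusted p = 0.0418). It also passed by DESeq2.

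*Nkg7*, on chromosome 7, encodes a membrane protein of cytotoxic granules needed for their release. Its FPKM was 4.98, 8.72 and 7.70 in control, 5.69, 4.82 and 6.58 in IL-33, and 9.61, 4.56 and 7.12 in IL-33+LM8 mice. The 3 groups overlapped, and replicate 1 of the control group lay inside the IL-33 range. The fitted log2 fold change was -0.32 ± 0.23 after IL-33 (edgeR adjusted p = 0.279), 0.31 ± 0.27 with LM8 against IL-33 (0.452) and 0.01 ± 0.30 against control (0.989). The 95% interval after IL-33 ran from -0.87 to 0.23. The ratio of *Nkg7* to *Gzma* was 0.234, 0.263 and 0.310 in control mice and 0.546, 0.399 and 0.615 in IL-33 mice, 1.92-fold higher with no overlap. The exact permutation test gave p = 0.1, and 0.164 after adjustment over 36 ratio tests. This ratio too was chosen after the values had been seen.

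Both NK receptors fell after IL-33. *Ncr1*, on chromosome 7, encodes NKp46, an activating receptor that in mice marks NK cells and some other innate lymphoid cells. Its FPKM was 3.21, 5.02 and 3.71 in control, 1.85, 1.70 and 1.70 in IL-33, and 3.49, 1.62 and 2.18 in IL-33+LM8 mice. The IL-33 mice were close together (1.75 ± 0.0869 SD, n = 3) and below all controls (3.98 ± 0.937), while the IL-33+LM8 mice (2.43 ± 0.958) ran from below the lowest IL-33 mouse into the control range. *Ncr1* fell by 1.17 ± 0.20 on the log2 scale after IL-33 (edgeR adjusted p = 0.00217). With LM8 it was 0.46 ± 0.28 from IL-33 (edgeR adjusted p = 0.285) and -0.70 ± 0.30 from control (0.129). Without IL-33+LM8 replicate 1 the difference from control passed (-1.04 ± 0.26, edgeR adjusted p = 0.0294).

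*Klrb1c*, on chromosome 6, encodes NK1.1, the receptor by which NK cells of C57BL/6 mice are usually recognised. It measured 2.14, 3.46 and 2.80 FPKM in control, 1.52, 1.28 and 1.37 in IL-33, and 2.32, 1.63 and 2.07 in IL-33+LM8 mice. The IL-33 mice lay below all other mice. The means were 2.80 ± 0.660, 1.39 ± 0.122 and 2.00 ± 0.348 (SD, n = 3 each). The fall after IL-33 was -1.01 ± 0.20 (edgeR adjusted p = 0.00382). With LM8 the difference from IL-33 was 0.53 ± 0.18 (edgeR adjusted p = 0.0658), which passed without IL-33+LM8 replicate 2 (0.65 ± 0.17, adjusted p = 0.0328) and by DESeq2 (0.53 ± 0.20, adjusted p = 0.029). Since Klrb1 genes resemble one another, reads of *Klrb1c* may be shared with its relatives.

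Neither transcription factor was called after IL-33. *Eomes*, on chromosome 9, is the T-box factor that sets mature circulating NK cells apart from type 1 innate lymphoid cells. It was low, between 53 and 255 reads per mouse. Its FPKM was 0.417, 0.523 and 0.795 in control, 0.630, 0.723 and 0.585 in IL-33, and 0.377, 0.193 and 0.333 in IL-33+LM8 mice. The control and IL-33 mice overlapped, and every IL-33+LM8 mouse lay below every mouse of both other groups. The means were 0.578 ± 0.195, 0.646 ± 0.0705 and 0.301 ± 0.0962 (SD, n = 3 each). After IL-33 the log2 fold change was 0.17 ± 0.27 (edgeR adjusted p = 0.632), and without control replicate 1 it was -0.01. With LM8 *Eomes* fell 2.15-fold from the IL-33 level (-1.11 ± 0.28, edgeR adjusted p = 0.0255). That call was lost on leaving out any IL-33 mouse or IL-33+LM8 replicate 3 (adjusted p between 0.0605 and 0.0738), and it held without IL-33+LM8 replicate 2, the lowest mouse. It was also lost without the expression filter, by limma on log2(FPKM + 0.1) and with the replicate number as a block. The mean of 0.508 FPKM over the 9 mice passed the 0.5 FPKM required for the test, while the IL-33+LM8 mean lay below it. Against control, IL-33+LM8 gave -0.92 ± 0.34 (edgeR adjusted p = 0.0826). Over all runs the adjusted p of that difference went from 0.0433 to 0.235.

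*Tbx21*, on chromosome 11, encodes T-bet, which drives *Ifng* and the cytotoxic programme in NK and T cells. Its FPKM was 0.783, 1.28 and 1.31 in control, 0.846, 0.800 and 0.830 in IL-33, and 1.31, 0.563 and 1.19 in IL-33+LM8 mice. The IL-33 mice were nearly equal (0.825 ± 0.0237 SD, n = 3), and the lowest control mouse lay just below them. The fitted difference after IL-33 was -0.44 ± 0.24 (edgeR adjusted p = 0.165). Without control replicate 1 it passed (-0.64 ± 0.20, edgeR adjusted p = 0.0375). With LM8 the difference was 0.31 ± 0.32 from IL-33 (edgeR adjusted p = 0.539) and -0.12 ± 0.36 from control (0.829).

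*Ifng*, on chromosome 10, encodes interferon-gamma, the main cytokine made by NK and type 1 T cells. It was almost silent, at 4 to 34 reads per mouse, and its mean of 0.182 FPKM was below the 0.5 FPKM required for the test, with *Eomes* just above at 0.508. It measured 0.277, 0.0455 and 0.342 FPKM in control, 0.0751, 0.146 and 0.109 in IL-33, and 0.410, 0.0860 and 0.150 in IL-33+LM8 mice. The groups overlapped throughout. In a fit that admitted genes from 0.1 FPKM, its mean level after IL-33 was 0.497 of that in control mice (edgeR adjusted p = 0.33), and with LM8 the log2 fold change from IL-33 was 0.99 ± 0.67 SE (edgeR adjusted p = 0.381). Differences of this size could not be told from the spread between mice at this depth.

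*Cd8a*, on chromosome 6, encodes the alpha chain of CD8, the co-receptor of cytotoxic T cells, also found on some dendritic cells. Its FPKM was 2.31, 2.41 and 2.65 in control, 2.55, 1.96 and 2.41 in IL-33, and 3.13, 2.02 and 2.5005 in IL-33+LM8 mice. The 3 groups lay on top of each other, with means of 2.46 ± 0.177, 2.30 ± 0.305 and 2.55 ± 0.561 (SD, n = 3 each). After IL-33 the log2 fold change was -0.09 ± 0.14 (edgeR adjusted p = 0.591, 95% interval -0.41 to 0.23). Its partner *Cd8b1* measured 3.56 ± 0.648, 2.73 ± 0.402 and 3.77 ± 0.874 FPKM (SD, n = 3 each) and was not called either (-0.38 ± 0.20 after IL-33, edgeR adjusted p = 0.142). *Cd3e*, of the T cell receptor complex, rose from 1.32 ± 0.0438 to 1.73 ± 0.0374 FPKM after IL-33 (0.39 ± 0.12, edgeR adjusted p = 0.0306, and 0.0585 without control replicate 1), and *Cd4* from 1.76 ± 0.326 to 2.77 ± 0.0955 (0.64 ± 0.16, edgeR adjusted p = 0.0109).

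**Figure D3:**
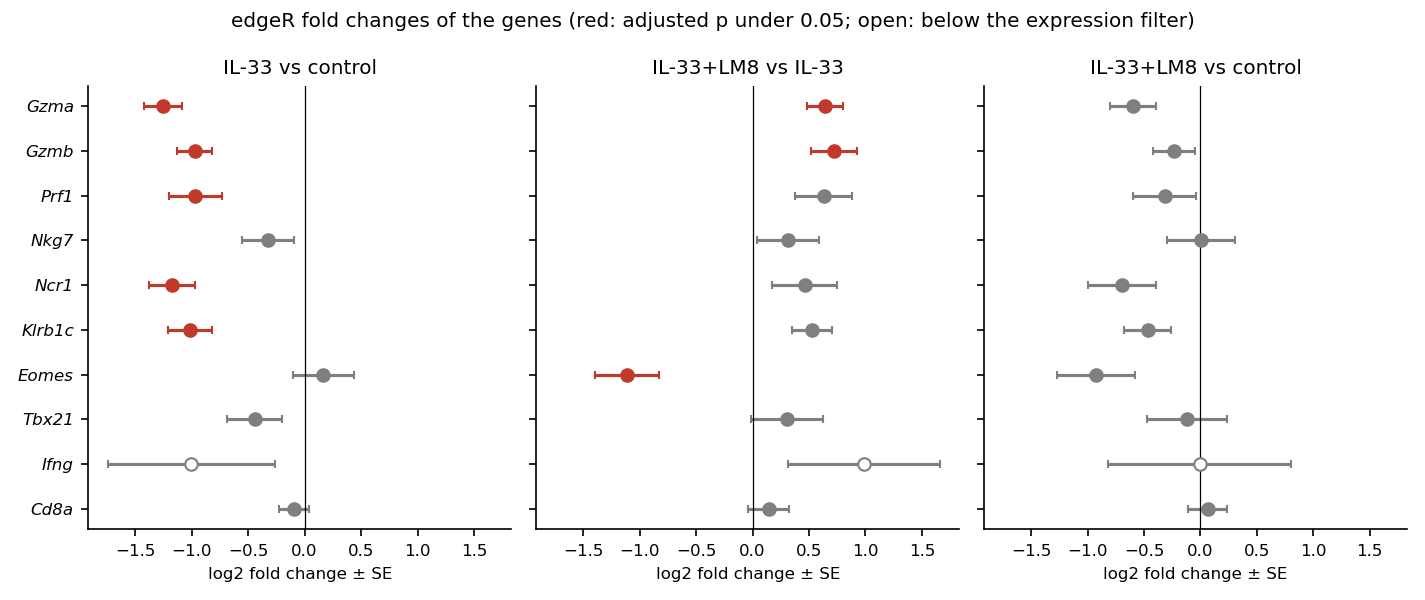
Fitted log2 fold change of each gene with its SE (edgeR's quasi-likelihood test, 3 mice per group) in the 3 comparisons; red points have an adjusted p under 0.05 and open points lie below the expression filter. After IL-33 the 5 called genes lie between -1.26 and -0.97, and with LM8 *Gzma* and *Gzmb* lie to the right and *Eomes* to the left of 0.

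By mean level over the 9 mice the genes ran in the order *Gzma*, *Nkg7* (6.64 FPKM), *Gzmb* (4.83), *Ncr1* (2.72), *Prf1* (2.55), *Cd8a* (2.44), *Klrb1c* (2.06), *Tbx21* (0.99), *Eomes* and *Ifng*. *Gzma* lay above every other gene in every mouse. Apart from *Gzma* and *Nkg7*, neighbours in this order had ranges over the 9 mice that overlapped. Across the 9 mice, log2(FPKM + 1) of *Gzma*, *Gzmb*, *Prf1*, *Ncr1* and *Klrb1c* was correlated in each of their 10 pairs (Pearson's r from 0.90 to 0.97). *Eomes* had a median r of 0.06 with the other genes. These values describe 9 mice in 3 groups that share their library and treatment, so they are given with no p.

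Ratios within a mouse do not depend on how libraries were scaled. The ratio of *Gzma* to *Ncr1* was 6.64, 6.61 and 6.69 in the control mice although *Gzma* itself spread from 21.3 to 33.2, and it was 5.62, 7.10 and 6.27 in the IL-33 mice and 6.00, 8.28 and 8.03 in the IL-33+LM8 mice, with overlap of the groups. The ratio of *Eomes* to *Ncr1* was 0.130, 0.104 and 0.214 in control mice, 0.340, 0.425 and 0.343 in IL-33 mice, and 0.108, 0.119 and 0.153 in IL-33+LM8 mice. After IL-33 it was 2.58-fold higher, and it was 2.93-fold lower with LM8, with no overlap either way. *Ncr1* over *Ptprc*, the pan-leukocyte gene for CD45, was 5.94-fold lower after IL-33 and 1.75-fold higher with LM8 than with IL-33 alone. *Ptprc* itself averaged 7.75 ± 0.463, 20.6 ± 0.760 and 15.6 ± 1.86 FPKM in the control, IL-33 and IL-33+LM8 mice (SD, n = 3 each), so both parts of that ratio moved. *Cd8a* over *Cd3e* was 1.40-fold lower after IL-33 and 1.45-fold higher with LM8. Each of these differences reached p = 0.1 in an exact two-sided permutation test, the smallest that 3 against 3 mice can give, and 0.164 after adjustment over the 36 ratio tests, and the ratios were chosen after the values had been seen.

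Beyond the 10, the tested NK receptors moved in both directions after IL-33. Of 13 tested genes for NK cell receptors, edgeR called 4 lower and 3 higher after IL-33, where 27.2% of all genes were called lower and 27.4% higher, so the counts of this list lay near the background. Over the alternatives 3 to 4 were lower and 1 to 3 higher. The median log2 fold change was -0.29, against -0.01 over all genes. With LM8, 1 was higher than in IL-33 mice and 1 higher than in control (12.6% and 16.3% over all genes), with 1 lower than in control under the replicate block. The lower ones included *Klri2* (-1.05), *Klre1* (-0.90) and *Klrd1* (-0.68, from 4.73 ± 0.472 to 2.94 ± 0.462 FPKM, edgeR adjusted p = 0.0139), whose product CD94 pairs with NKG2 receptors. *Klrk1*, for the activating receptor NKG2D, was not called (-0.32 ± 0.22, edgeR adjusted p = 0.248). The higher ones included *Cd244a* (0.91, and a further 0.49 with LM8) and *Cd226* (0.71, not called without control replicate 1, edgeR adjusted p = 0.0986), co-receptors also carried by other leukocytes.

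Of 7 tested Ly49 genes, which encode receptors for class I MHC molecules, 4 were lower after IL-33 and 0 higher (27.2% and 27.4% over all genes). They included *Klra9* (2.46 ± 0.849 to 0.866 ± 0.164 FPKM, log2 fold change -1.499, edgeR adjusted p = 0.00503) and *Klra7* (-1.16, edgeR adjusted p = 0.0127). With LM8, 2 were higher than with IL-33 alone (12.6% over all genes): *Klra2* (0.94) and *Klra17*, at 0.164, 0.207 and 0 FPKM in IL-33 mice and 1.63, 1.32 and 1.10 in IL-33+LM8 mice (edgeR adjusted p = 0.0181). Both are known from myeloid rather than NK cells, and 8 neutrophil markers rose over the same mice, from 194 to 218 FPKM in sum to 891 to 1044, a link that was not tested. Against control, *Klra17* and *Klra2* (0.66) were higher with LM8 and *Klra7* lower (-0.78), a call that was lost without control replicate 1 or IL-33+LM8 replicate 1 or 2 and with the replicate number as a block (edgeR adjusted p between 0.0605 and 0.137). Ly49 genes are near copies of one another, and how their reads were divided is uncertain.

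**Figure D4:**
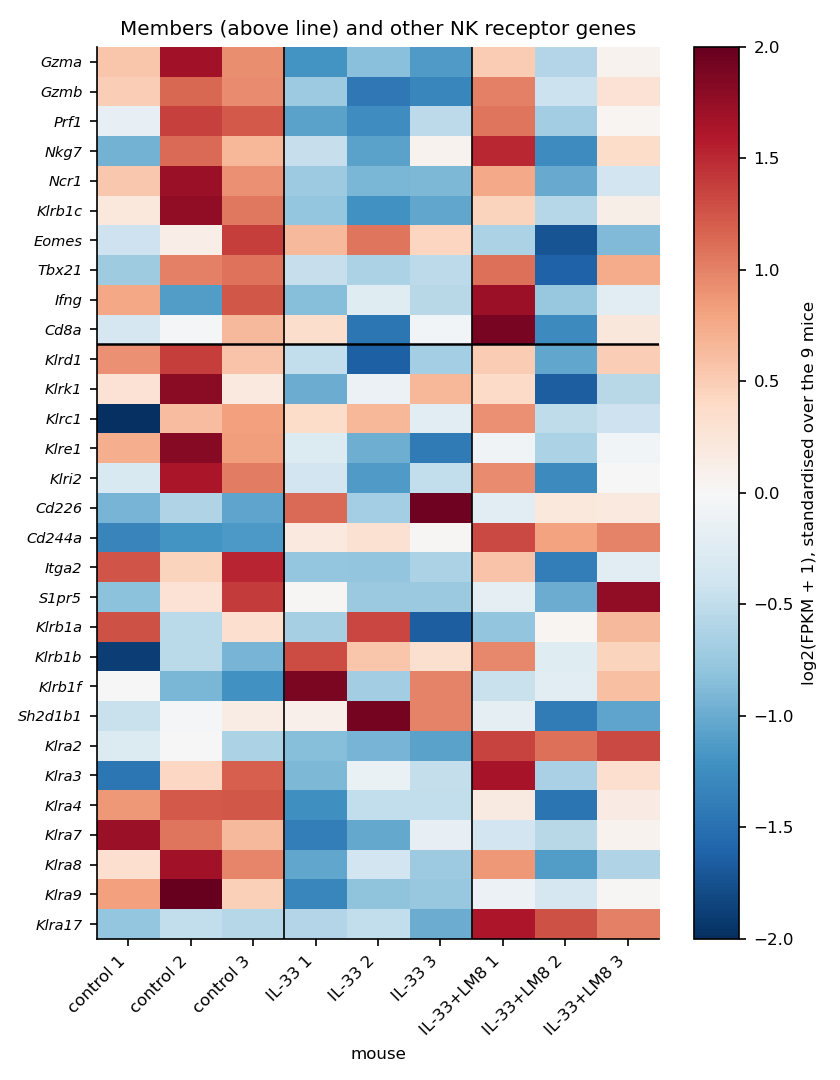
log2(FPKM + 1) of the 10 genes (above the line) and of the tested NK receptor and Ly49 genes (below it), each standardised over the 9 mice, from blue (low) to red (high). The IL-33 columns are blue for *Gzma*, *Gzmb*, *Prf1*, *Ncr1* and *Klrb1c* and for *Klra4*, *Klra7*, *Klra8* and *Klra9*, *Eomes* is lowest in the IL-33+LM8 columns, and *Klra2* and *Klra17* are highest there.

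Other genes of granules and killing moved in both directions. Of 12 tested, 5 were higher and 3 lower after IL-33, 3 higher and 3 lower with LM8 against IL-33, and 3 higher and 1 lower with LM8 against control. The shares over all genes were 27.4% higher and 27.2% lower, 12.6% and 13.9%, and 16.3% and 13.4%. The 3 falls after IL-33 and the counts against control thus lay near the background. Over the alternatives the list gave 4 to 5 higher and 1 to 3 lower after IL-33, 1 to 3 higher and 1 to 4 lower with LM8 against IL-33, and 2 to 4 higher and 0 to 2 lower against control, with 4 and 2 under the replicate block. Without IL-33+LM8 replicate 1 the second of these was 1 higher and 4 lower. *Gzmm*, a granzyme of NK cells, went from 0.856 ± 0.0969 FPKM to 0.442 ± 0.137 after IL-33 and 0.949 ± 0.227 with LM8 (-0.94, edgeR adjusted p = 0.0289, then 1.08, edgeR adjusted p = 0.0396). Its fall was not called without control replicate 1 (edgeR adjusted p = 0.0817) nor its rise without IL-33+LM8 replicate 1 (0.89, edgeR adjusted p = 0.109). *Fasl*, the death receptor ligand, fell by 0.80 (edgeR adjusted p = 0.0577 without control replicate 1). *Tnfsf10* fell by 0.73 after IL-33 (edgeR adjusted p = 0.000321). With LM8 it was 0.31 higher than in IL-33 mice (edgeR adjusted p = 0.0337, and 0.0741 without IL-33+LM8 replicate 1). It was still lower with LM8 than in control (-0.41, edgeR adjusted p = 0.0812 without IL-33+LM8 replicate 2). *Cst7*, a granule cystatin also made by myeloid cells, rose by 2.32 and was 1.21 above control with LM8, a difference not called without control replicate 1 or IL-33+LM8 replicate 2. The level of *Gzmk*, a granzyme of T cells, rose from 0.366 ± 0.235 to 0.951 ± 0.308 FPKM (1.38, edgeR adjusted p = 0.0491, and 0.107 without control replicate 1). With LM8, *Cst7* (-1.13) and *Ctsw* (-0.75) were lower than in IL-33 mice and the fusion protein gene *Stx11* higher (0.49, and 1.05 against control). Markers of other granulocytes moved over the same mice, with 8 eosinophil markers at 85 to 93, 643 to 697 and 155 to 191 FPKM in sum, and their part in these values was not tested.

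Upstream of the NK cell, *Il15*, the cytokine that keeps NK cells alive, was 2.77 ± 0.406, 2.22 ± 0.140 and 2.54 ± 0.477 FPKM in the 3 groups and was not called (-0.32 ± 0.16 after IL-33, edgeR adjusted p = 0.122). *Il18*, which primes NK cells for interferon-gamma, fell from 6.21 ± 0.547 to 1.81 ± 0.544 FPKM (-1.76, edgeR adjusted p = 0.000766) and was still lower with LM8 than in control (-1.49). The receptor gene *Il18r1* fell by 0.66 after IL-33. *Il18rap*, of the same receptor, rose from 1.60 ± 0.0423 to 5.02 ± 0.546 FPKM (1.64, edgeR adjusted p = 1.27e-05). Receptor genes that many leukocytes carry rose after IL-33, among them *Il12rb1* (2.00), *Il21r* (1.96) and *Il2rb* (1.07), the last from 5.66 ± 0.887 to 11.9 ± 0.833 FPKM. In all, 5 of the 11 tested genes of upstream cytokines and their receptors rose after IL-33 and 3 fell. With LM8, 0 were higher and 2 lower than in IL-33 mice, *Il21r* (-0.85) and *Il2rg* (-0.35), and 5 were higher and 1 lower than in control, led by *Il12rb1* (1.71) and *Il18rap* (1.43). Over all genes 27.4% rose and 27.2% fell after IL-33, so the 3 falls lay near the background. The shares were 12.6% and 13.9% with LM8 against IL-33, and 16.3% and 13.4% against control. *Il12rb2*, the chain that makes the IL-12 receptor responsive, stayed under the filter, at 0.403 ± 0.0641, 0.454 ± 0.0740 and 0.458 ± 0.145 FPKM.

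Of 10 further transcription regulators of type 1 lymphocytes, 7 were higher and 1 lower after IL-33, and 1 higher and 5 lower with LM8 against IL-33. *Runx3*, a RUNX factor of cytotoxic lymphocytes that ILCs and myeloid cells express too, rose from 1.12 ± 0.127 to 5.42 ± 0.256 FPKM (2.26, edgeR adjusted p = 5.06e-06) and stood at 3.04 ± 0.287 with LM8 (-0.83 from IL-33 and 1.45 above control). *Stat4*, which carries the IL-12 signal, rose by 1.89, and was lower by -0.62 with LM8 and 1.28 above control. *Hopx*, also strongly expressed in alveolar type 1 cells, fell by 1.32 and rose by 1.02 with LM8. Against control, 4 were higher with LM8 and 0 lower, and 1 was lower with the replicate block or without IL-33+LM8 replicate 1. Beside these counts, 27.4% of all genes were higher and 27.2% lower after IL-33. With LM8 the shares were 12.6% and 13.9% against IL-33, and 16.3% and 13.4% against control.

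Of 17 genes for the interferon-gamma receptor, its signalling and its targets, 9 were higher and 5 lower after IL-33, 5 higher and 3 lower with LM8 against IL-33, and 7 higher and 0 lower with LM8 against control. In the same order, 27.4% and 27.2%, 12.6% and 13.9%, and 16.3% and 13.4% of all genes were higher and lower. The 5 lower after IL-33 thus lay near the background. The counts of this list with LM8 turn on single mice, with 2 to 9 higher against IL-33 and 4 to 13 against control over the alternatives. Against IL-33, 2 were higher without IL-33+LM8 replicate 1 and 9 without replicate 2, with 3 lower in both. Against control, 6 were higher without replicate 1, 13 without replicate 2, 5 without control replicate 1 and 9 with the replicate block. *Cxcl9*, a chemokine that interferon-gamma induces, was 0.560, 0.422 and 0.486 FPKM in control, 1.14, 1.12 and 1.495 in IL-33, and 5.54, 1.65 and 3.18 in IL-33+LM8 mice. It rose by 1.34 after IL-33 (edgeR adjusted p = 0.0017) and was 1.46 higher with LM8 than in IL-33 mice (edgeR adjusted p = 0.0336). IL-33+LM8 replicate 2 lay close to the IL-33 mice, and without replicate 1 the difference with LM8 was 0.95 ± 0.30 and was not called (edgeR adjusted p = 0.0709), while without replicate 2 it was 1.79 ± 0.27 (0.00483). *Cxcl10* (1.92) and *Socs1* (3.67) also rose after IL-33, *Gbp4* (-0.77) and *Igtp* (-0.35) fell, and *Gbp2* rose with LM8 (0.72, and 0.46 without IL-33+LM8 replicate 1, edgeR adjusted p = 0.0859), while *Ciita* (-0.78) and *Jak2* (-0.54) fell. Against control, *Cxcl9* (2.82) and *Cxcl10* (2.53) led the genes higher with LM8.

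Of 10 chemokine and homing genes of cytotoxic lymphocytes, 7 were higher and 2 lower after IL-33, 2 higher and 4 lower with LM8 against IL-33, and 5 higher and 0 lower against control. For this list and that of ligands below, the shares over all genes were 27.4% higher and 27.2% lower after IL-33. With LM8 they were 12.6% and 13.9% against IL-33, and 16.3% and 13.4% against control. *Ccl4* (3.02), a chemokine that myeloid cells express as well, rose after IL-33 and was above control with LM8 (2.13). *S1pr1* (-0.83), through which lymphocytes leave tissue and which endothelium expresses strongly, and *Cx3cr1* (-0.64) fell. With LM8, *Ccl3* (-1.82) was lower and *S1pr1* (0.69) higher than in IL-33 mice. *Ccl5*, the chemokine of effector lymphocytes, was not called (0.09 ± 0.13 after IL-33, edgeR adjusted p = 0.592). Among 10 genes for ligands that NK receptors see, 6 were higher and 1 lower after IL-33, 1 higher and 5 lower with LM8 against IL-33, and 4 higher and 0 lower against control. Without IL-33+LM8 replicate 2, 3 of the 5 were called lower against IL-33, and the replicate block gave 5 higher and 1 lower against control. *Cd48* (1.83) and *Ulbp1* (1.63) rose and *Clec2d* fell (-0.74) after IL-33, and each moved back with LM8 (-0.78, -1.03 and 0.45). *Cd48* (1.07) and *Ulbp1* (0.62) stayed above control.

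**Figure D5:**
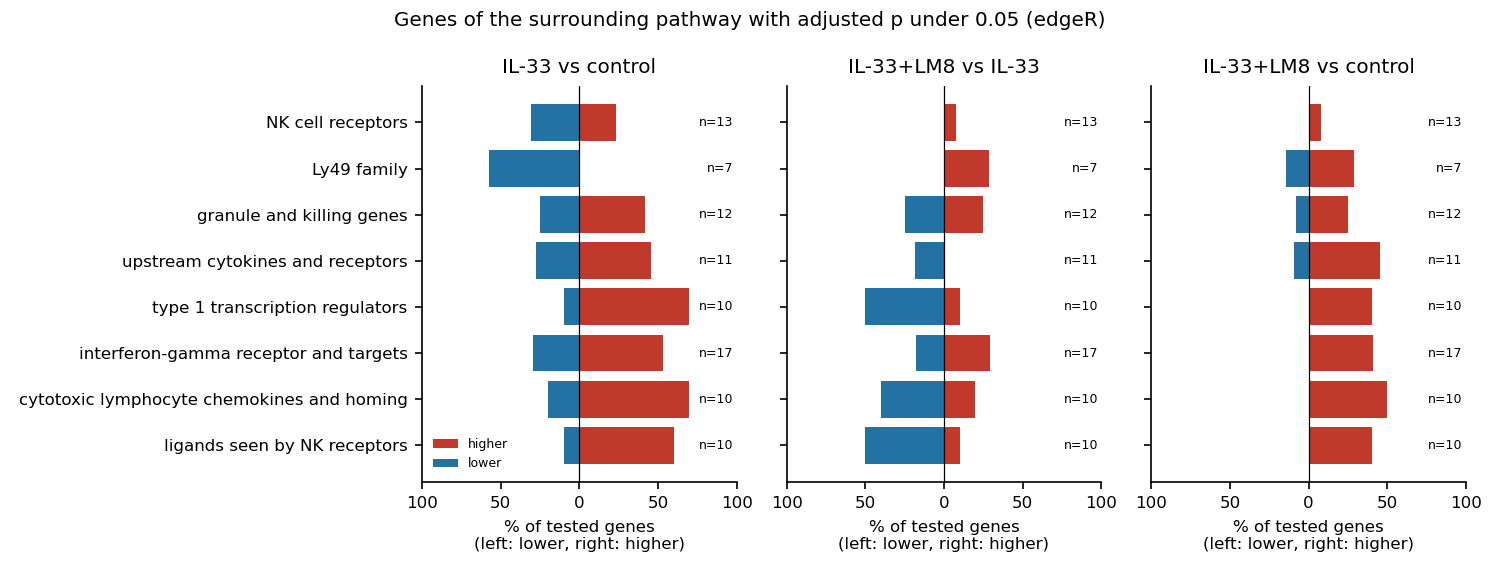
Share of the tested genes of each pathway list (n beside the bars) with an edgeR adjusted p under 0.05, higher to the right and lower to the left, in the 3 comparisons. After IL-33 the Ly49 list has falls only (4 of 7), while 7 of 10 genes rise in both the type 1 transcription regulator and the chemokine lists. Over all genes 27.4% were higher and 27.2% lower after IL-33.

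Of the lists of other lymphocytes that could carry these transcripts, those of general T cells and of ILC2 and Th2 cells were mostly higher after IL-33. Over all genes 27.4% were higher and 27.2% lower after IL-33, and 12.6% and 13.9% with LM8 against IL-33. Of 12 general T cell markers, 10 were higher and 0 lower after IL-33, with sums of 60.7 to 67.8 FPKM in control, 113 to 133 in IL-33 and 92.0 to 101 in IL-33+LM8 mice. Of 5 tested markers of CD8 and cytotoxic T cells, 2 were higher and 0 lower. These were *Cd3e* and *Cd3g* (0.99), which all T cells carry, and without control replicate 1 only 1 was called. *Cd8b1*, of the same list, was not called (-0.38). Of 7 tested ILC2 and Th2 markers, 7 were higher after IL-33, and 5 were lower in IL-33+LM8 than in IL-33 mice, with sums of 7.29 to 8.23, 68.0 to 83.2 and 31.3 to 34.5 FPKM. No marker of any cell type list was at 0 in all mice. Of 3 markers of gamma-delta and innate-like T cells, 2 were lower after IL-33 and higher with LM8 than in IL-33 mice: *Zbtb16* (40.5 ± 7.26 FPKM in control mice) and *Sox13* (34.7 ± 2.93). Both lay far above *Cd3e*, and *Trdc*, the constant chain of the gamma-delta receptor, was not called (0.578 ± 0.178 to 0.688 ± 0.196 FPKM after IL-33, 0.24 ± 0.31, edgeR adjusted p = 0.535). Their sum is therefore not given as a measure of these cells. *Cd3g*, *Zbtb16*, *Sox13* and *Trdc* were named after their values had been seen. The part of these cells in the values of the 10 genes was not tested.

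Among 14635 other genes at 1 FPKM or more, the 8 whose level over the 9 mice was most like the mean of the members were *Smpdl3a* (r = 0.98), *Trpt1*, *Pde4d*, *Il15*, *Zfp341*, *Gm49331*, *Lnx2* and *Bicral* (r = 0.95). *Il15* measured 2.36, 2.79 and 3.17 FPKM in control, 2.38, 2.13 and 2.15 in IL-33, and 2.94, 2.01 and 2.66 in IL-33+LM8 mice. It was highest in IL-33+LM8 replicate 1 and lowest in replicate 2 of that group, as were the 10 genes. With 9 points and this many genes ranked, high values of r arise easily, and the likeness is a description only.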

How the data were processed

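Whole-lung RNA of 9 mice was sequenced in pairs of reads. The authors deposited 1 table with read counts and FPKM of each gene per mouse. The submitters' processing notes name HISAT2 2.0, StringTie 1.3.0, Bowtie 0.12.2 and mm10, and the table's gene positions differ from GRCm38, so they are not printed. Samples were grouped by their treatment label.

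Counts were tested with the quasi-likelihood test of edgeR 4.0.16 (R 4.3.3, TMM scaling), with 6 mice per comparison. Genes entered the fit where their FPKM averaged 0.5 or more across the 9 mice. Calls needed p under 0.05 after Benjamini-Hochberg adjustment over all of these genes. Since the table held counts, limma served as an alternative only. Alternatives were DESeq2 1.42.0, limma 3.58.1 on log2(FPKM + 1) or log2(FPKM + 0.1), other filters and scalings, all 9 mice, the replicate number as a block, a minimum log2 fold change of 1, and each mouse left out. Scripts were tested on simulated data. Exact permutation tests and ratios used scipy 1.17.1 (Python 3.11.15).

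The 10 genes, the gene lists and the tests were chosen with earlier results of these data known. Named genes are the 10, up to 2 called genes per list, direction and comparison with the largest fold change, 13 further genes of these pathways, and the 8 genes most alike. Of these, 2 genes are not reported here. The sources do not say whether mice were handled in separate batches. The p-values weigh a difference against the spread between mice within the groups compared. In IL-33+LM8 against control, same-numbered mice deviated together (correlations 0.31, 0.32 and 0.67). Counts of the pathway lists that change with the replicate block are therefore given with it there, and no call of the 10 genes changed. Mice of different number correlated as strongly in other comparisons, such as IL-33+LM8 replicate 3 with IL-33 replicate 1 (0.67) and IL-33 replicate 1 with control replicate 3 (0.65). No label pairs mice, so the blocked values are not preferred. The pairing by number in IL-33+LM8 against control comes from the data alone. In the other comparisons same-numbered pairs ran from -0.42 to 0.28, and the numbers pair no mice. Intervals use the t quantile at edgeR's degrees of freedom. Libraries of 1 group differed by 20.4 to 46.6 times the sampling variance, so each was kept as a sample of its own. Total counts per mouse were 53877663 to 90607218. The lowest member, *Ifng*, had 4 to 34 reads, so its fold changes carry large counting error. Protein sequences were not used here.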

Additional observations from a re-analysis of the deposited data

How the results depend on the processing

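Of the log2 fold changes of the 10 genes under the alternatives, 390 stayed as reported, a call was lost in 22 and gained in 11, and 12 changed sign. The 5 falls after IL-33 held in all alternatives except the minimum log2 fold change of 1, which left 3 called lower, without *Gzmb* and *Prf1*. With LM8 against IL-33, the number called higher was 4 by DESeq2, 1 without the expression filter and 0 with the minimum fold change, and the number called lower was 0 by limma on log2(FPKM + 0.1) and 0 without the filter. Leaving out 1 mouse gave 0 to 4 higher and 0 to 1 lower. The 4 came without IL-33+LM8 replicate 2, and leaving out IL-33 replicate 1 or 3 or IL-33+LM8 replicate 3 gave 0 in both directions. In IL-33+LM8 against control, 2 were called lower by DESeq2, 2 with all 9 mice, and 0 to 2 with a mouse left out, the 2 without IL-33+LM8 replicate 1. No call turned over. Signs changed for uncalled genes near 0. When single mice were left out, *Eomes* after IL-33 ranged from -0.0138 to 0.46 and *Cd8a* from -0.15 to 0.0222. *Cd8a* with LM8 ranged from -0.0266 to 0.28 against IL-33 and from -0.11 to 0.21 against control. *Tbx21* ranged from -0.33 to 0.17 and *Nkg7* from -0.27 to 0.24 against control. *Nkg7* there was -0.0264 and -0.0328 by limma with pseudocounts of 1 and 0.1 and -0.012 by total counts, and *Ifng* was 0.0026 without the filter. The cause of these changes was not tested.

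With the replicate block, no call of the 10 genes changed in IL-33+LM8 against control, where *Nkg7* was -0.0203 and 6 genes of the pathway lists were called lower in place of 3. In every comparison mice share only a number. After IL-33 the block left 5 genes lower, and with LM8 against IL-33 it left 1 higher and 0 lower. Depth limits *Ifng* and *Eomes* most.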
